A study of Mus musculus with 6 samples.

Results

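From the 37991 genes counted in libraries labelled as bone endothelial cells (BECs) of 12-week-old mice, 10 were taken that encode proteins of the secondary and tertiary granules of neutrophils or enzymes made alongside them: Ltf, Camp, Ngp, Lcn2, Mmp8, Mmp9, Chil3, Cybb, Lyz2 and Padi4. They were chosen by name as late granule protein genes, with earlier results of these data known, so their counts set against all genes are a description. Each of the 10 was found in the table and passed the filter on low counts that left 19480 genes for testing. RNA was sequenced from 6 libraries of c57/Bl6 mice, 3 from females and 3 from males, all aged 12 weeks, with no other genotype or treatment in the labels. The cells were freshly isolated from bone (tibia in the labels, tibia and femur in the study's methods) by their expression of endomucin, a surface glycoprotein of venous and sinusoidal endothelium, and the methods describe antibody-coated beads for this step. The methods also state that libraries were made from the 3 samples with the best RNA quality in each set. The study asked how BECs differ between the sexes. The sources used here do not say whether mice were pooled, so p-values measure the spread between these samples, which may be partly technical.

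Neutrophils mature in the bone marrow through stages that each load a different kind of granule. Primary granules are filled first, in promyelocytes, with myeloperoxidase and serine proteases. Secondary (specific) granules follow in myelocytes and metamyelocytes, and tertiary (gelatinase) granules in band cells. Contents are sorted by the time at which their genes are transcribed, so the secondary and tertiary granule genes mark late precursors. Transcription factors of the C/EBP family, C/EBP epsilon above all, together with PU.1, are needed for the secondary granule genes. Of the 10 genes, Ltf, Camp, Ngp, Lcn2 and Mmp8 encode cargo of secondary granules and Mmp9 the defining cargo of tertiary granules. Chil3, Cybb and Lyz2 are also expressed by macrophages and monocytes, and Padi4 encodes a cytosolic and nuclear enzyme that is not stored in a granule.

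The promoters below are shown because genes of secondary granules share regulators. Each sequence is the 250 bases before the transcription start, taken from RefSeq on GRCm38.p6, 5′ to 3′ on the strand of the gene. RefSeq entries were matched for 9 of the 10 genes, all but Mmp9. The first 4 have capitals at the letters TTNNGNAA, a form of the C/EBP recognition sequence searched on both strands. They are Ltf (chr9:111019042-111019291, plus strand), Ngp (chr9:110419558-110419807, plus strand), Lcn2 (chr2:32387740-32387989, minus strand) and Mmp8 (chr9:7558179-7558428, plus strand).
Ltf: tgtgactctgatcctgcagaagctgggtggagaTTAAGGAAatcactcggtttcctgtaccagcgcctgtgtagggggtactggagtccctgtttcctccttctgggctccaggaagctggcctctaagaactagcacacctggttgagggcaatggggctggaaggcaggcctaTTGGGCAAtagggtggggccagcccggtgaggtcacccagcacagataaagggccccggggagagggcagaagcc
Ngp: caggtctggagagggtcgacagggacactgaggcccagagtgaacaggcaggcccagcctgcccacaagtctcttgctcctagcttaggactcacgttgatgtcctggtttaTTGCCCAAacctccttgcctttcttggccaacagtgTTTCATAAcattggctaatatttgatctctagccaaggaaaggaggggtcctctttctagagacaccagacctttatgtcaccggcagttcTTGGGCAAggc
Lcn2: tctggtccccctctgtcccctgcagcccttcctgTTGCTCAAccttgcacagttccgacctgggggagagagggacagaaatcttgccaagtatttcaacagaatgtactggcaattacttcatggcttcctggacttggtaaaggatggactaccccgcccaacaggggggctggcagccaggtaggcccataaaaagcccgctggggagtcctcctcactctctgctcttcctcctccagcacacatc
Mmp8: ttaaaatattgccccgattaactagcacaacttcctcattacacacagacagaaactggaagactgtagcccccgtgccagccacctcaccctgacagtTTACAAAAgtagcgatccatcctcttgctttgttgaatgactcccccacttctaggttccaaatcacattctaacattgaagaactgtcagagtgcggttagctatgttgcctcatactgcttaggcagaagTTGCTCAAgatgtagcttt

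The next 2 promoters belong to the genes with the highest fold differences between the sexes among the 10, Camp (chr9:109849457-109849706, minus strand) and Padi4 (chr4:140774204-140774453, minus strand). Neither window holds TTNNGNAA. In Padi4 the capitals mark the letters TATAAA, and Camp has no capitals.
Camp: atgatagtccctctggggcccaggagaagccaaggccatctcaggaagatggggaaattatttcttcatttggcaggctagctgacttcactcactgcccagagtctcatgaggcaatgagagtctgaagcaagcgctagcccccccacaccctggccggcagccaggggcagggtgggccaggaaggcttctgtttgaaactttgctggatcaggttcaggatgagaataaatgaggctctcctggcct
Padi4: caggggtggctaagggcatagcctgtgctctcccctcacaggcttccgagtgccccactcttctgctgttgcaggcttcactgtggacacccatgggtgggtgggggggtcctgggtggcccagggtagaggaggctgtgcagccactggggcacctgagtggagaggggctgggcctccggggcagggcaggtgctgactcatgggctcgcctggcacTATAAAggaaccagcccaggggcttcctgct

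The letters TTNNGNAA occurred in 6 of the 9 windows, those of Ltf, Ngp, Lcn2, Mmp8, Chil3 and Lyz2, against 36.8% of 32851 mouse promoters of the same length. The stricter TTNNGCAA, each match of which is also a match of TTNNGNAA, occurred in 4, those of Ltf, Ngp, Lcn2 and Mmp8, against 9.56%. In Ltf it lay 75 to 68 bases before the start, in Mmp8 19 to 12 bases and in Lcn2 216 to 209 bases. Ngp held it at 138 to 131 and at 11 to 4 bases before the start. GAGGAA, the core of the PU.1 box, was found on either strand in 3 windows, those of Ltf, Lcn2 and Mmp8, against 23.3%. TATAAA occurred in 1, that of Padi4, 31 to 26 bases before the start, against 12.4%. All 4 motifs were searched on both strands and were chosen after the matches had been seen. A match is a string of letters and not a measured binding site, and no factor binding was measured in these samples.

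Total counts lay between 47678806 and 58325745 per library, and the 10 genes had between 3366 (Padi4) and 237036 (Lyz2) counts in a library, against a floor of 3 counts, which is 0.0477 to 0.0639 CPM (counts scaled to a common library size). Intervals and floors cover counting error only, since amplified reads are not independent molecules. Levels are CPM after TMM normalisation, edgeR's scaling of library sizes. Fold changes are log2, males over females, each with its standard error (SE). Xist and the Y-linked gene Ddx3y separated the labelled sexes, with 152 to 364 CPM of Xist in females against 0.126 to 0.702 in males and 1.26 to 1.92 CPM of Ddx3y in females against 48.2 to 65.9 in males. Of the markers of the labelled cell type, Emcn, the gene of endomucin, lay between 3.09 and 10.5 CPM and Cdh5, the gene of VE-cadherin, between 6.50 and 32.6 CPM. Pecam1, the gene of CD31, was at 68.5 to 101 CPM and Stab2, the gene of the sinusoidal receptor stabilin 2, at 54.7 to 124 CPM. Per kilobase of canonical transcript, the mean level of the 20 endothelial markers ran from 0.16 to 23.2 CPM with a median of 3.84, and each was below that of Padi4, the lowest of the 10 granule genes at 36.7. The libraries are called BECs here after their labels.

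All 10 granule genes had a mean above that of females in the 3 male libraries, by a ratio of means between 1.01 for Cybb, whose direction turned when female or male replicate 1 was left out, and 1.83 for Camp. Every male library lay above every female library for 8 of the 10 (all but Chil3 and Cybb), against 7.25% of the 19480 genes tested. In edgeR's quasi-likelihood test none of the 10 had an adjusted p (Benjamini-Hochberg over all genes tested) under 0.05, a threshold that 8 genes (0.0411%) passed in either direction. At an unadjusted p under 0.05 in the same test, 7 of the 10 were higher in males (Camp, Ngp, Lcn2, Mmp8, Mmp9, Lyz2 and Padi4) and none lower, against 5.03% of all genes higher in males and 4.76% lower. With the Wald test of DESeq2, the tool the study used, 6 of the 10 were higher in males at an adjusted p under 0.05 (Camp, Lcn2, Mmp8, Mmp9, Lyz2 and Padi4), against 1.31% of 17252 genes. In edgeR's test without male replicate 3, Mmp8 and Padi4 had an adjusted p of 0.0455 and 0.0268 and 96 genes in all passed, and without female replicate 2 no granule gene passed and 5 genes did in all. The median log2 fold change of males over females was 0.56 over the 10 genes and -0.00 over all genes tested.

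Cell type markers moved with the same contrast. The summed level of 10 other neutrophil markers was 12050 to 14358 CPM in the female libraries and 20476 to 31395 CPM in the male ones. That of 20 endothelial markers was 415 to 615 CPM in females against 250 to 384 CPM in males, and that of 16 macrophage and monocyte markers 5261 to 5542 CPM against 3722 to 4773 CPM. Their part in the differences of the granule genes was not tested. In bulk RNA, fewer cells of a type and less RNA per cell cannot be told apart.

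**Figure D1:**
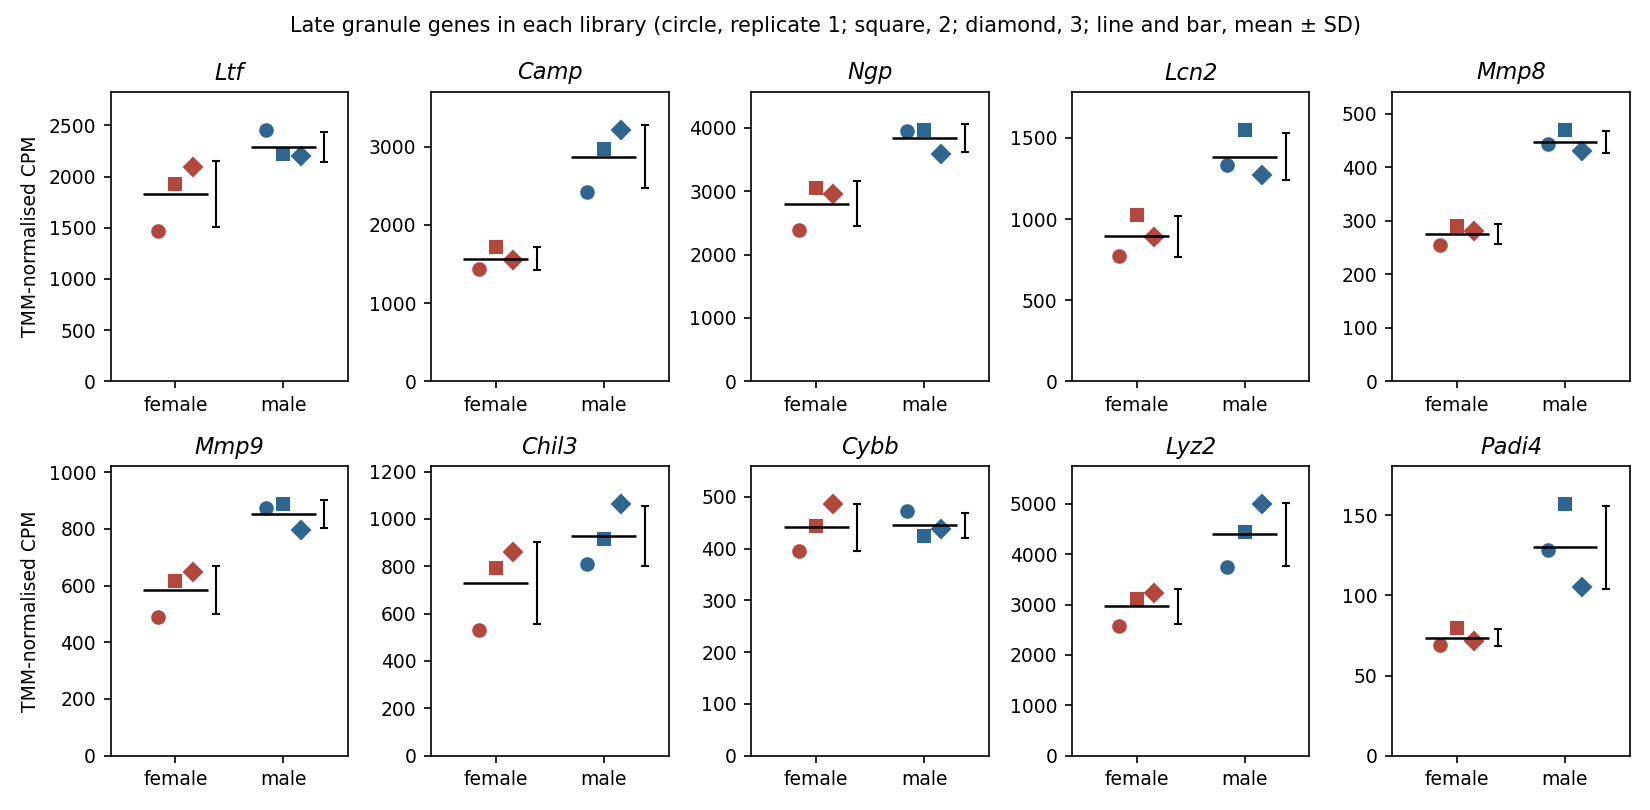
Each panel plots 1 gene, with TMM-normalised CPM on a linear axis from 0 and the 6 libraries as points (circle, square and diamond for replicates 1, 2 and 3), the mean as a line and the SD (n = 3) as a bar beside the points. All 3 male points lie above all 3 female points in 8 panels, while those of Chil3 and Cybb overlap.

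Ltf (ENSMUSG00000032496, chromosome 9 of GRCm39 from 110848339 to 110871835, plus strand) encodes lactoferrin, the iron-binding protein of secondary granules. Its levels were 1472, 1930 and 2092 CPM in female replicates 1 to 3 and 2457, 2218 and 2198 CPM in the males. The lowest male library lay just above the highest female library, and female replicate 1 lay well below the other females. Means were 1831 ± 322 CPM (SD, n = 3) and 2291 ± 144 CPM (SD, n = 3), and the log2 fold change was 0.32 (SE 0.17, edgeR adjusted p = 0.578, DESeq2 adjusted p = 0.413, 0.195 to 1 over 15 alternatives). It was 0.20 without female replicate 1, the lowest of a range up to 0.43.

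Camp (ENSMUSG00000038357, chromosome 9 from 109676442 to 109678685, minus strand) encodes the precursor of the cathelicidin antimicrobial peptide, which is stored uncleaved in secondary granules. Female libraries held 1433, 1721 and 1549 CPM and male libraries 2427, 2966 and 3217 CPM. The lowest male library lay well above the highest female library. With means of 1568 ± 145 CPM (SD, n = 3) and 2870 ± 404 CPM (SD, n = 3), the ratio of males to females was 1.83 and the log2 fold change 0.87 (SE 0.17, edgeR adjusted p = 0.0932, DESeq2 adjusted p = 7.24e-06, 6.98e-11 to 0.446 over 15 alternatives). By unadjusted p in edgeR's test, Camp ranked 73 of 19480.

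Ngp (ENSMUSG00000032484, chromosome 9 from 110248815 to 110252086, plus strand) encodes neutrophilic granule protein, a relative of the cathelicidin precursor. It was at 2393, 3049 and 2954 CPM in the females and 3954, 3966 and 3587 CPM in the males. No male library came down to the female range. Means were 2799 ± 354 CPM (SD, n = 3) and 3835 ± 215 CPM (SD, n = 3), and the log2 fold change was 0.45 (SE 0.16, edgeR adjusted p = 0.391, DESeq2 adjusted p = 0.0693, 0.00953 to 1 over 15 alternatives).

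Lcn2 (ENSMUSG00000026822, chromosome 2 from 32274645 to 32278264, minus strand) encodes lipocalin 2, which withholds iron from bacteria by binding their siderophores. The females had 773, 1024 and 887 CPM and the males 1330, 1550 and 1274 CPM. Again the sexes did not overlap. The means of 895 ± 126 CPM (SD, n = 3) and 1385 ± 146 CPM (SD, n = 3) gave a ratio of 1.55 and a log2 fold change of 0.63 (SE 0.16, edgeR adjusted p = 0.221, DESeq2 adjusted p = 0.00482, 6.37e-06 to 0.904 over 15 alternatives).

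Mmp8 (ENSMUSG00000005800, chromosome 9 from 7558457 to 7568487, plus strand) encodes neutrophil collagenase. Levels of 255, 290 and 281 CPM in females stood against 443, 470 and 430 CPM in males. Both sexes were tight, with coefficients of variation of 6.55% in females and 4.58% in males, the lowest of the 10 genes in each sex. The ratio of the means, 276 ± 18.1 CPM (SD, n = 3) and 448 ± 20.5 CPM (SD, n = 3), was 1.62. Its log2 fold change was 0.70 (SE 0.12, edgeR adjusted p = 0.0701, DESeq2 adjusted p = 2.50e-05, 1.84e-07 to 0.365 over 15 alternatives), and by unadjusted p in edgeR's test it ranked 49 of 19480, the first of the 10.

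Mmp9 (ENSMUSG00000017737, chromosome 2 from 164780439 to 164797771, plus strand) encodes gelatinase B, after which the tertiary granules are named, and in bone it is also made by osteoclasts. The 3 female libraries held 488, 615 and 649 CPM and the 3 male libraries 873, 888 and 796 CPM. Males were higher without overlap, by a ratio of 1.46 between means of 584 ± 84.6 CPM (SD, n = 3) and 852 ± 49.6 CPM (SD, n = 3). The log2 fold change was 0.55 (SE 0.15, edgeR adjusted p = 0.259, DESeq2 adjusted p = 0.0218, 0.00149 to 0.933 over 15 alternatives). The summed level of 8 osteoclast genes, led by Acp5, was 190 to 218 CPM in females and 153 to 172 CPM in males. Of the 7 tested, 4 were lower in males at an unadjusted p under 0.05 in edgeR's test, against 4.76% of all genes. None was higher at that threshold, but 2, Ocstamp and Atp6v0d2, had a positive log2 fold change (0.41 each). The part of osteoclasts in the level of Mmp9 was not tested.

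Chil3 (ENSMUSG00000040809, chromosome 3 from 106054870 to 106074880, minus strand) encodes the chitinase-like lectin Ym1, made by late neutrophil precursors and by alternatively activated macrophages. Levels reached 532, 793 and 860 CPM in females and 810, 914 and 1063 CPM in males. The sexes overlapped, since female replicate 3 exceeded male replicate 1, and the spread among females was the widest of the 10 genes, with a coefficient of variation of 23.8%. The means of 728 ± 173 CPM (SD, n = 3) and 929 ± 127 CPM (SD, n = 3) differed by a log2 fold change of 0.35 (SE 0.19, edgeR adjusted p = 0.597, DESeq2 adjusted p = 0.491, 0.0586 to 1 over 15 alternatives). Without female replicate 1 the log2 fold change was 0.18, the lowest of a range up to 0.49. Its neighbour Chil4 is a near copy, with a canonical transcript of the same length of 1539 bases, so the counts of both are uncertain as far as reads could be split between them. Chil4 had 32.3 to 51.0 CPM in females and 47.0 to 56.8 CPM in males, a log2 fold change of 0.28 (SE 0.16, edgeR adjusted p = 0.615).

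Cybb (ENSMUSG00000015340, X chromosome from 9301491 to 9354010, minus strand) encodes gp91phox, the catalytic subunit of the phagocyte NADPH oxidase, which neutrophils hold in the membrane of secondary and tertiary granules. It stood at 395, 443 and 486 CPM in females and 472, 425 and 437 CPM in males. The male range lay within the female range. Means were 441 ± 45.5 CPM (SD, n = 3) and 444 ± 24.2 CPM (SD, n = 3), with a log2 fold change of 0.01 (SE 0.13, edgeR adjusted p = 0.987, DESeq2 adjusted p = 0.987, 0.919 to 1 over 15 alternatives), whose sign turned without female replicate 1 (-0.05) or male replicate 1 (-0.04). Macrophages, B cells and monocytes also express the gene. Their part in its level was not tested. Cybb overlaps Xk on the opposite strand, which had at most 597 counts in a library against at least 20708 for Cybb.

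Lyz2 (ENSMUSG00000069516, chromosome 10 from 117111557 to 117118346, minus strand) encodes lysozyme M, which digests bacterial cell walls and is found in all granule types of neutrophils and in macrophages. It was the most abundant of the 10 by CPM, with 2577, 3101 and 3225 CPM in females and 3754, 4435 and 4997 CPM in males. Every male library exceeded every female library. The means of 2968 ± 344 CPM (SD, n = 3) and 4395 ± 623 CPM (SD, n = 3) gave a ratio of 1.48 and a log2 fold change of 0.57 (SE 0.18, edgeR adjusted p = 0.326, DESeq2 adjusted p = 0.0231, 2.92e-05 to 0.963 over 15 alternatives). The neighbouring near copy Lyz1 had 149 to 182 CPM in females and 228 to 255 CPM in males, and the counts of both are uncertain to the extent that reads could be assigned to either. The counts of Lyz2 were 17.3, 18.1 and 17.7 times those of Lyz1 in females and 16.5, 18.5 and 19.6 times in males, ranges that overlap.

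Padi4 (ENSMUSG00000025330, chromosome 4 from 140472808 to 140501939, minus strand) encodes peptidylarginine deiminase 4, which citrullinates histones when neutrophils release extracellular traps. It was the lowest of the 10 genes, with 69.3, 79.6 and 71.7 CPM in females and 128, 157 and 105 CPM in males. The sexes did not overlap, and the males varied more, with a coefficient of variation of 20.1% against 7.27% in females. Between means of 73.5 ± 5.35 CPM (SD, n = 3) and 130 ± 26.1 CPM (SD, n = 3) the ratio was 1.77 and the log2 fold change 0.82 (SE 0.15, edgeR adjusted p = 0.0859, DESeq2 adjusted p = 2.65e-04, 2.60e-07 to 0.365 over 15 alternatives). Of its family, Padi2 and Padi3 passed the filter on low counts, and neither reached an unadjusted p under 0.05 in edgeR's test. Padi2 had 15.9 to 20.7 CPM in females and 13.1 to 25.9 CPM in males, and Padi3 stayed at or under 1.08 CPM.

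The 10 genes held 1.12%, 1.24% and 1.29% of all counts in female replicates 1 to 3 and 1.74%, 1.80% and 1.70% in the males. Females had a mean share of 1.22 ± 0.0860% (SD, n = 3) against 1.75 ± 0.0484% (SD, n = 3) for males. Counting error was small beside this difference, with 95% Wilson intervals at most 0.00743 percentage points wide. Lyz2 and Ngp together with Camp and Ltf made up most of the counts of the 10 genes in every library. By mean CPM these 4 ranked 23, 25, 35 and 36 among the 19480 genes tested, and Padi4 ranked 1736.

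**Figure D2:**
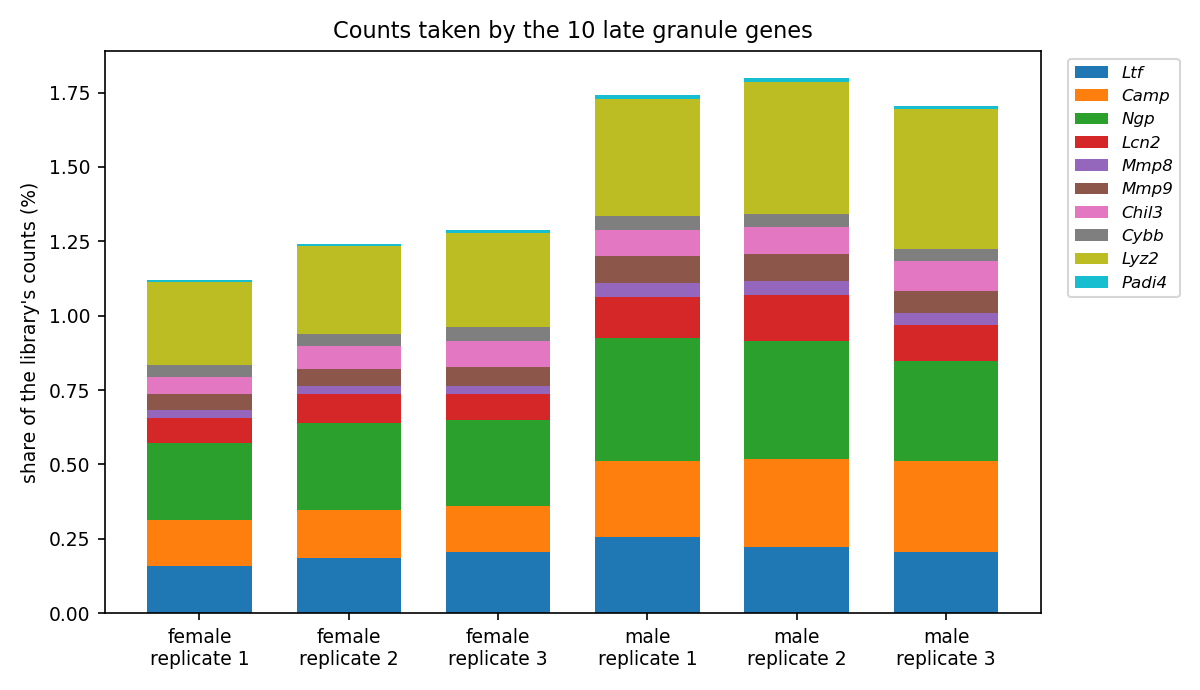
Stacked bars give the share of each library's counts (%, axis from 0) taken by each of the 10 genes, with 1 bar for each library. The female bars reach 1.12% to 1.29% and the male bars 1.70% to 1.80%, with Lyz2 and Ngp as the widest segments.

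For 2 of the 10 genes, the part taken of their joint counts did not overlap between the sexes. Over the 19480 genes tested, levels (not such parts) did not overlap for 1412 higher in males and 1420 lower. As 2 of 10 is near that share, it is not read as a result about the 2 genes. Camp took 13.8%, 13.2% and 11.9% of their joint counts in females and 14.6%, 16.5% and 17.8% in males. Cybb took 3.80%, 3.40% and 3.72% in females and 2.83%, 2.36% and 2.41% in males. The ranges of the other 8 genes overlapped between the sexes. These shares are a description, are tied to each other because they sum to the whole, and had 95% Wilson intervals at most 0.216 percentage points wide.

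Within a library, ratios of counts compare genes without any scaling of library size. The ratio of Camp to Ltf was 0.974, 0.892 and 0.740 in females and 0.988, 1.34 and 1.46 in males. That of Camp to Ngp was 0.599, 0.564 and 0.525 in females and 0.614, 0.748 and 0.897 in males. In both cases male replicate 1 lay just above the females and the other two males well above. Mmp8 to Ltf lay at 0.135 to 0.174 in females against 0.180 to 0.212 in males, and Padi4 to Ltf at 0.0343 to 0.0471 against 0.0478 to 0.0708. The ratios of Ngp to Ltf (1.41 to 1.63 in females, 1.61 to 1.79 in males) and of Mmp8 to Mmp9 (0.434 to 0.523 and 0.507 to 0.541) overlapped. Against S100a8, which encodes the cytosolic calcium-binding protein calgranulin A, Ltf was at 0.340, 0.369 and 0.407 in females and 0.323, 0.177 and 0.207 in males, lower in each male than in each female. The ratio of Camp to S100a8 overlapped, at 0.301 to 0.331 in females and 0.237 to 0.319 in males. None of these ratios was tested.

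Per length, on the scale of mean CPM per kilobase of the canonical transcript over the 6 libraries, the order of levels was Camp (2908), Ngp (2701), Lcn2 (1246), Lyz2 (1229), Ltf (746), Chil3 (538), Mmp9 (226), Mmp8 (149), Cybb (93.0) and Padi4 (36.7). The ranges over libraries overlapped between the neighbours Camp and Ngp, Lcn2 and Lyz2, Lyz2 and Ltf, Ltf and Chil3, and Mmp9 and Mmp8, but within single libraries the order Lyz2, Ltf, Chil3, Mmp9, Mmp8, Cybb, Padi4 held in all 6. Ngp exceeded Camp in all 3 females and 1 male, and Camp exceeded Ngp in the other two males. Lcn2 and Lyz2 were each the higher of the pair in 3 of the 6. Divided by the length of all annotated exons instead, Lcn2 moved from place 3 to place 6 and the order of the other 9 among themselves stayed as it was.

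Across the 6 libraries, each gene was set against the mean of the other 9 after standardising log2(CPM + 0.5). Pearson's r was highest for Mmp9 (0.99) and Ngp (0.98), between 0.81 and 0.93 for 7 genes, and 0.32 for Cybb. The libraries share their depth, scaling and the difference between the sexes, so r is given as a description. Among other genes with a mean of at least 5 CPM, those most like the mean of the 10 included Gsn (r = 0.9976), Tgfbi (0.9952), Gnaq (0.9829) and the long non-coding RNA 6530402F18Rik (0.9808). Gsn, the gene of the actin-severing protein gelsolin, had 168, 191 and 197 CPM in females and 227, 230 and 229 CPM in males, a log2 fold change of 0.30 (edgeR adjusted p = 0.426). The log2 fold changes of the other 3 were 0.25, 0.12 and 0.47, with an adjusted p from edgeR between 0.353 and 0.754.

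Further genes of late granules were compared in the same fit. The list held 20 other genes whose products are stored in, or made with, secondary, tertiary and secretory granules. At an unadjusted p under 0.05 in edgeR's test 16 were higher in males, against 5.03% of all genes. At the same threshold 1, Slc11a1, was lower, against 4.76%. Olfm4, named after its values were seen, overlapped between the sexes. Its log2 fold change was also negative, at -0.35 (SE 0.17, edgeR adjusted p = 0.545). None of the 20 had an adjusted p under 0.05 in edgeR's test. In DESeq2's 12 did, all higher in males, against 1.31% of 17252 genes. Their median log2 fold change was 0.61, and their summed level lay at 3435 to 4103 CPM in females against 5452 to 6439 CPM in males. Retnlg, which encodes the secreted resistin-like protein gamma, had 601, 785 and 664 CPM in females and 1184, 1545 and 1403 CPM in males. Its log2 fold change was 1.01 (SE 0.16, edgeR adjusted p = 0.0603). Those of Anxa1, the gene of annexin A1, and Hp, the gene of haptoglobin, were 0.73 and 0.61. Chil1, a chitinase-like relative of Chil3, had 77.0 to 89.9 CPM in females and 128 to 152 CPM in males, and its log2 fold change was 0.70 and that of Lyz1 0.53 (edgeR adjusted p = 0.0701 and 0.183). Slc11a1, named after its values were seen, encodes a metal transporter shared with macrophages, and it had 120 to 127 CPM in females and 86.1 to 107 CPM in males.

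Of 6 partners of gp91phox in the NADPH oxidase, 4 were higher in males at an unadjusted p under 0.05 in edgeR's test and none lower. Over all genes, 5.03% were higher in males at that threshold and 4.76% lower. Among these were the cytosolic subunits Ncf1 and Ncf4 and the GTPase Rac2, with log2 fold changes of 0.49, 0.39 and 0.31. None had an adjusted p under 0.05 in edgeR's test and 1, Ncf1, did in DESeq2's, against 1.31% of 17252 genes higher in males. Cybc1, a chaperone of the membrane heterodimer and named after its values were seen, had the only negative log2 fold change of the 6, -0.11 (SE 0.11, edgeR adjusted p = 0.790). Cyba, the gene of p22phox, which forms the membrane heterodimer with gp91phox, had 460, 595 and 566 CPM in females and 523, 558 and 756 CPM in males. The sexes overlapped, and its log2 fold change was 0.18 (SE 0.17, edgeR adjusted p = 0.781). The ratio of Cybb to Cyba counts overlapped as well, with 0.744 to 0.858 in females and 0.577 to 0.901 in males.

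Primary granule genes belong to the stage before. Of the 6 that were tested, none was higher in males at an unadjusted p under 0.05 in edgeR's test, against 5.03% of all genes. At the same threshold 1, Ctsc, was lower, against 4.76%, with a log2 fold change of -0.30 (edgeR adjusted p = 0.479). Mpo, the gene of myeloperoxidase, had 179, 207 and 440 CPM in females and 137, 173 and 234 CPM in males. Its values overlapped, with female replicate 3 apart from the other females, and the log2 fold change was -0.61 (SE 0.34, edgeR adjusted p = 0.606). For Elane, the gene of neutrophil elastase, it was 0.17 (SE 0.33, edgeR adjusted p = 0.904). The median of the 6 was 0.07, and the summed levels overlapped, with 768 to 1247 CPM in females and 608 to 1035 CPM in males. The difference between the primary and the later granule genes was not tested.

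**Figure D3:**
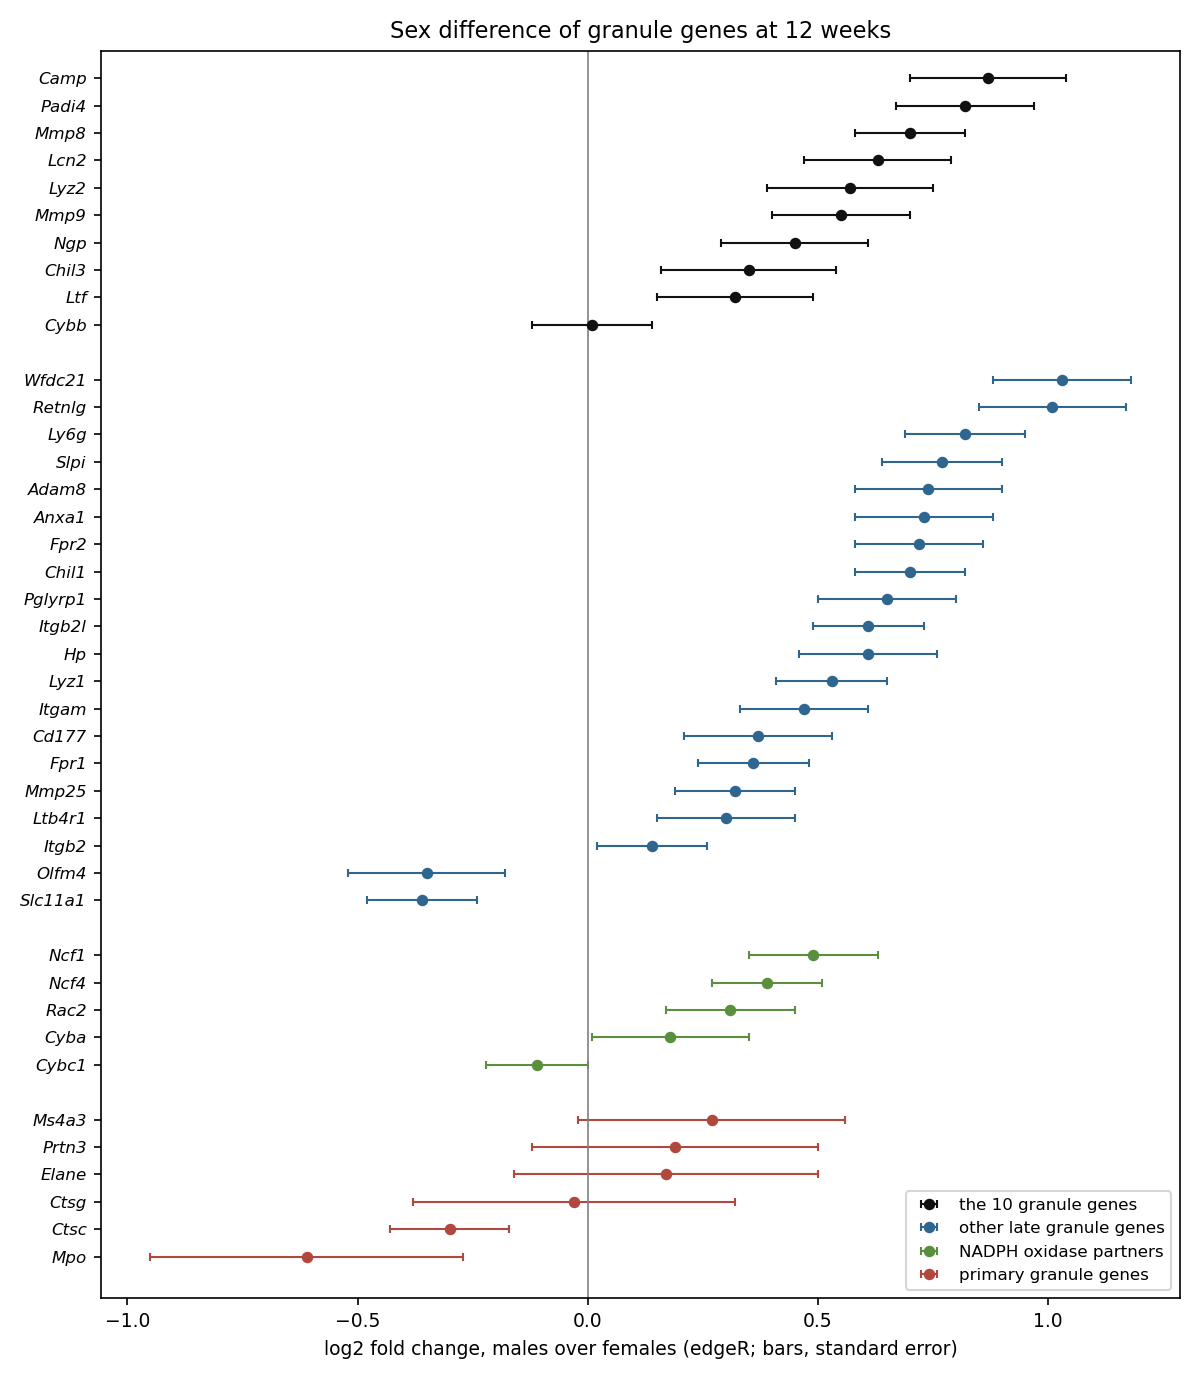
Points give the log2 fold change of males over females from edgeR's fit and bars the standard error, for the 10 granule genes (black), 20 other late granule genes (blue), 5 NADPH oxidase partners (green, Ncf1, Ncf4, Rac2, Cyba and Cybc1) and 6 primary granule genes (red), ordered within each list. The 10 genes run from 0.01 for Cybb to 0.87 for Camp, and the primary granule genes from -0.61 to 0.27.

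Of 9 transcription factors of the granule programme, 5 were higher in males at an unadjusted p under 0.05 in edgeR's test and none lower. Over all genes, 5.03% were higher and 4.76% lower. The median log2 fold change of the 9 was 0.36. Irf8, a factor of the monocyte lineage and the most abundant of them, had a log2 fold change of -0.12. That of Spi1, which encodes PU.1, was 0.36 (SE 0.14), and that of Cebpa, which acts at the primary granule stage, was -0.25 (SE 0.15), with an adjusted p of 0.441 and 0.622 from edgeR. Cebpe, Cebpd and Cebpb are named because the promoters above were searched for C/EBP letters and after their values were seen. Cebpe, the gene of C/EBP epsilon, had 43.0, 58.7 and 57.1 CPM in females and 62.1, 72.7 and 72.6 CPM in males, a log2 fold change of 0.38 (SE 0.14, edgeR adjusted p = 0.401). Cebpd had 38.3, 55.3 and 46.2 CPM in females and 66.7, 92.1 and 84.0 CPM in males, a log2 fold change of 0.80 (SE 0.16, edgeR adjusted p = 0.115). Cebpe and Cebpd were higher in each male than in each female. Cebpb overlapped, with 41.7 to 56.3 CPM in females and 54.2 to 79.7 CPM in males. Its log2 fold change was 0.42 (SE 0.17, edgeR adjusted p = 0.446).

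Genes whose products bind granule proteins were compared next. The 4 tissue inhibitors of metalloproteinases, which block Mmp8 and Mmp9, had no unadjusted p under 0.05 in edgeR's test. Timp2 lay at 203 to 217 CPM in females against 172 to 236 CPM in males, Timp3 at 10.1 to 31.0 CPM against 10.5 to 19.8 CPM, and Timp1 stayed at or under 2.74 CPM. Of 3 receptor genes for granule proteins, the lactoferrin receptor Lrp1 and the lipocalin 2 receptor Slc22a17 were lower in males at an unadjusted p under 0.05 in edgeR's test. Over all genes, 4.76% were. Lrp1 had 261, 215 and 232 CPM in females and 197, 126 and 173 CPM in males, a log2 fold change of -0.51 (SE 0.17, edgeR adjusted p = 0.343). Slc22a17 lay at 2.28 to 3.28 CPM in females against 1.36 to 1.99 CPM in males, and Lrp2 stayed at or under 0.506 CPM.

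The other markers of neutrophils had a median log2 fold change of 0.92. Of the 10 tested, 9 were higher in males at an unadjusted p under 0.05 in edgeR's test, against 5.03% of all genes. At an adjusted p under 0.05 in DESeq2's test 9 were, against 1.31% of 17252 genes. S100a8 had 4334, 5224 and 5139 CPM in females and 7598, 12524 and 10615 CPM in males, and S100a9, with which it forms calprotectin, had 6921 to 8231 and 11757 to 17506 CPM. In edgeR's test, 1 of the 10 passed at an adjusted p under 0.05, Cd101, named after its values were seen (adjusted p = 0.0416).

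Markers of other cells the preparation could hold are given for each list. Among 16 macrophage and monocyte genes, 13 were lower in males at an unadjusted p under 0.05 in edgeR's test, against 4.76% of all genes, and 1, the monocyte gene Ly6c2, was higher, with Vcam1, C1qa and C1qb as the most abundant and a median log2 fold change of -0.39. Among 20 endothelial genes, 14 were lower and none higher, with Stab2, Pecam1 and Eng as the most abundant and a median of -1.03. The summed level of the erythroid genes lay at 12134 to 17436 CPM in females against 18458 to 27131 CPM in males. It was led by the globin genes Hbb-bs, Hba-a1 and Hba-a2, whose near-identical copies make single counts uncertain. At an unadjusted p under 0.05 in edgeR's test, 5 of 9 erythroid genes were higher in males, against 5.03% of all genes. B cell genes, led by Ighm, Cd79b and Cd79a, overlapped in sum, with 4666 to 5646 and 4543 to 5715 CPM. So did the genes of eosinophils, basophils and mast cells, led by Prg2, Mcpt8 and Il5ra, with 126 to 157 and 106 to 134 CPM. Of the osteoclast genes, Acp5, Ctsk and Ocstamp were the most abundant. No matched gene of any list was at 0 in all 6 libraries. What these cells contributed to the counts of the 10 granule genes was not tested.

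**Figure D4:**
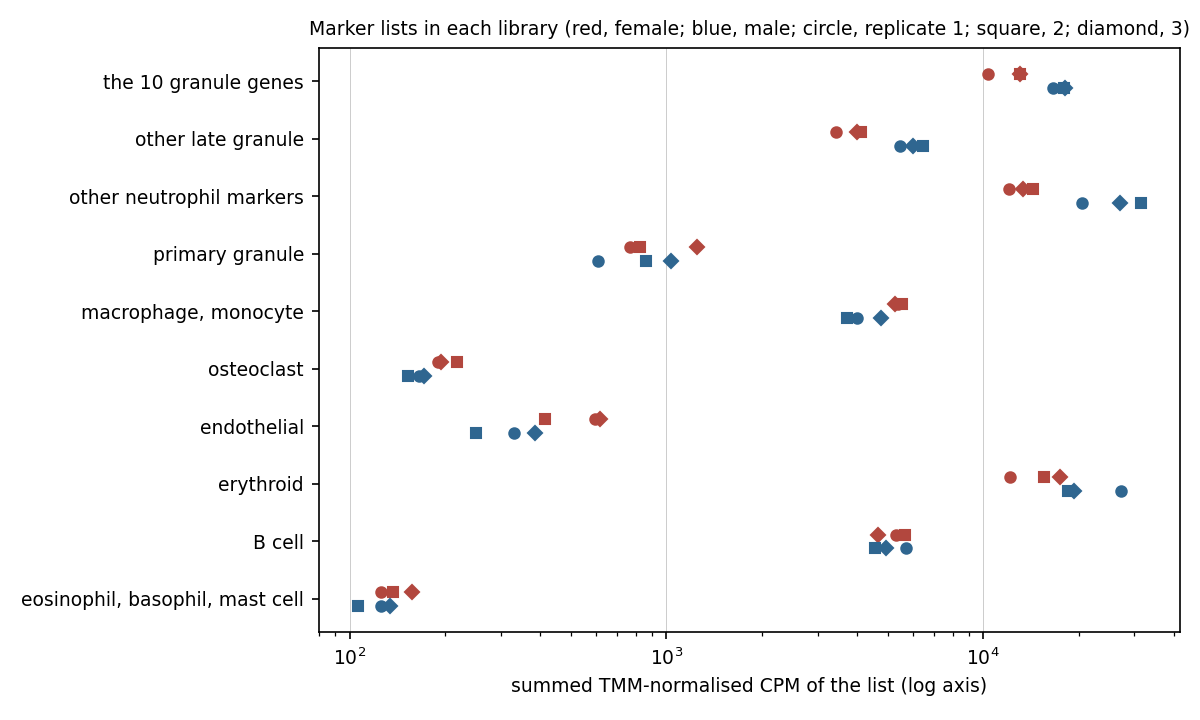
Each row plots the summed TMM-normalised CPM of a list on a log axis, with red points for females, blue points for males and a shape for each replicate. The 10 granule genes, at 10388 to 13055 CPM in females and 16647 to 18103 CPM in males, lie on the same side as the other neutrophil and the erythroid lists, and the macrophage, osteoclast and endothelial lists on the other.

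Camp, Ngp and Ltf lie on chromosome 9 of GRCm39 between 109676442 and 110871835. Within 100 kilobases of these 3 genes, 4, 6 and 4 other genes were tested, of which 0, 1 and 1 had an unadjusted p under 0.05 in edgeR's test. Over all genes, 5.03% were higher in males at that threshold and 4.76% lower. The most abundant of those neighbours were Map4, Scap and Lrrfip2, with mean levels of 111, 44.7 and 36.7 CPM. Mmp8, Lyz2, Padi4 and Cybb are each overlapped on the opposite strand by a gene of GENCODE M39 that has no row in the table, and the strand setting of the counting is not stated in the sources used here, so reads of such partners, and of Xk and Cybb, cannot be told apart.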

How the data were processed

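RNA was measured in 6 libraries labelled as endomucin-selected BECs, 3 female and 3 male. The authors deposited whole-number counts of reads for each gene and library, not normalised. The submitters' processing notes name TopHat2 2.0.11, featureCounts and the builds mm9 and NCBIM37, whereas the study's methods name STAR on GRCm39 with featureCounts. Labels and methods also differ in library kit, instrument and read length. The annotation release and strand setting are not given in the sources used here, and could change counts of overlapping genes. Symbols and positions came from GENCODE M39 (GRCm39), which matched 31073 of 37991 identifiers, and promoters from RefSeq (GRCm38.p6).

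Males were compared with females in edgeR 4.0.16 (R 4.3.3): TMM normalisation, removal of low counts by the default of edgeR, and robust quasi-likelihood fits, two-sided, with Benjamini-Hochberg adjustment over 19480 genes. Standard errors are the log2 fold change over the square root of F. The fit was also run on simulated counts with changes larger than those of the 10 genes, so that run does not show whether changes of their size are found. Alternatives were DESeq2 1.42.0 with and without the replicate number as a block, edgeR with the block, other size factors and filters, genes over 1% of counts left out, no robust estimation, and each library left out. The genes and lists were chosen with earlier results of these data known. Besides the 10 genes, the 3 most abundant tested genes of each list, near copies and complex partners (Lyz1, Chil1, Chil4, Cyba) and the 5 genes with the most similar pattern were named by rule, and some of these are not reported here. Values of other genes are named as chosen afterwards or as checks.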

Additional observations from a re-analysis of the deposited data

How the results depend on the processing

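The direction of 9 of the 10 granule genes held under all 15 alternatives, and the exception, Cybb, turned from 0.01 to -0.05 without female replicate 1 and to -0.04 without male replicate 1, within a range of -0.05 to 0.08 with 1 library left out. Of the 150 log2 fold changes (10 genes by 15 alternatives), 125 kept direction and side of the threshold, 23 passed it and 2 turned. The number of the 10 genes called at 0.05 (adjusted p), 0 with edgeR, was 6 in DESeq2's Wald test, 3 with no filter on low counts and 1 with total counts alone. With 1 library left out it lay between 0 and 2, the 2 being Mmp8 and Padi4 without male replicate 3. Over all genes the number was 8, and became 359 with DESeq2, 98 with no filter, 14 with total counts alone, and between 5 (without female replicate 2) and 96 (without male replicate 3) with 1 library left out. The cause was not tested. With genes over 1% of counts out of the denominator, the share of counts was 1.33% in females and 1.93% in males.

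With the replicate block, edgeR called 4 of the 10 genes (Camp, Lcn2, Mmp8 and Padi4) and 428 genes in all, and DESeq2 with the replicate block called 7 and 721. The labels do not say that a number marks a shared animal, litter or day. Deviations from the mean of the sex correlated between same-numbered libraries by 0.194, 0.0402 and 0.298 over 19480 genes, and 5 of 6 libraries correlated best with their own number, the exception being male replicate 2 (0.1311 with female replicate 1). These values do not settle whether same-numbered libraries share more than a number, and the main fit left the replicate number out.

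Chosen after seeing the data, 2 further counts were repeated: 6 to 9 of the 10 genes were higher in males at an unadjusted p under 0.05, against 2.71% to 6.96% of all genes. With other scalings 8 to 9 did not overlap, against 5.98% to 7.44%. With 1 library left out, which makes overlap rarer, 8 to 9 did not, against 8.88% to 15.4%.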
